A study of Mus musculus with 2 samples.

Results

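The genes described here are 10 components of the Notch pathway, chosen by symbol: the ligands Dll1, Dll4 and Jag1, the receptors Notch1, Notch2 and Notch3, the glycosyltransferase Lfng, and the target genes Hes1, Hey1 and Nrarp. All 10 were found among the 19294 genes of the count table, which carries NCBI gene identifiers (13388 for Dll1, 54485 for Dll4, 16449 for Jag1, 18128 for Notch1, 18129 for Notch2, 18131 for Notch3, 16848 for Lfng, 15205 for Hes1, 15213 for Hey1 and 67122 for Nrarp). They were measured by mRNA-seq in mouse intestinal organoids (mIOs) derived from jejunal crypts. The mice had the genotype Lgr5-EGFP-IRES-creERT2, in which the Lgr5 locus drives EGFP and creERT2, and the medium held EGF, Noggin and R-spondin. One culture was left untreated and 1 was exposed for 4 days to dextran sulfate sodium (DSS), which damages epithelial cells, and the labels give no DSS dose and no number of animals. The design therefore holds 1 control and 1 DSS library of the same genotype, and the question was how DSS altered expression.

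Notch signaling passes between touching cells. A Delta-like or Jagged ligand on a cell binds a Notch receptor on its neighbour, the receptor is cut by an ADAM protease and by gamma-secretase, and its released intracellular part joins RBPJ in the nucleus to switch on target genes such as Hes1. In intestinal crypts, Notch activity keeps stem cells and progenitors undifferentiated and directs cells to the absorptive fate, while cells with high Atoh1 carry Dll1 and Dll4 and become secretory. Hes1 represses Atoh1.

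Depth was similar, with 65493032 counts from control and 59746968 from DSS mIOs. Levels are given as CPM, which divides counts by the library size after TMM scaling, and a log2 ratio is always DSS over control. Brackets of a 95% interval are exact Clopper-Pearson bounds from the counts and cover counting error only, because no replicate exists and no test between conditions was possible. The table lists no gene at 0 in either library, so a gene without a row has no value here. The labels name intestinal stem cells as the cell type, yet both libraries held stem cell and mature cell transcripts. The summed level of 8 stem cell markers was 1537 CPM in control and 234 CPM in DSS mIOs, and that of 8 enterocyte markers was 2009 and 20295 CPM.

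In the DSS library, the Delta-like ligands Dll1 and Dll4 were higher, the 3 receptors were lower by about the same factor, Lfng was lower by a factor of 9.0, and Hes1 was slightly higher while Nrarp was lower. Of the 10 genes, 4 had a log2 ratio above 0 and 6 below 0, with a median of -0.84 against -0.06 for all 17235 genes with at least 10 counts in a library. A log2 ratio of 1 or more was reached by 1 of the 10 genes, Dll1, and by 19.3% of all tested genes. A log2 ratio of -1 or less was reached by 4 of the 10, Notch2, Notch3, Lfng and Nrarp, and by 20.2% of all tested genes. When 500 counts in a library were required, 10616 genes remained, all of the 10 except Hey1 among them, and these shares were 12.8% and 19.2%. Of those among all 17235 tested genes that were past either line of 1 or -1, TMM scaling put 48.9% on the higher side. Scaling by total counts alone, which lowers every log2 ratio by 0.26, put 37.1% there. Several of the 10 genes lie so close to a line of 1 that their number past it depends on the scaling, and the single values carry the description.

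**Figure D1:**
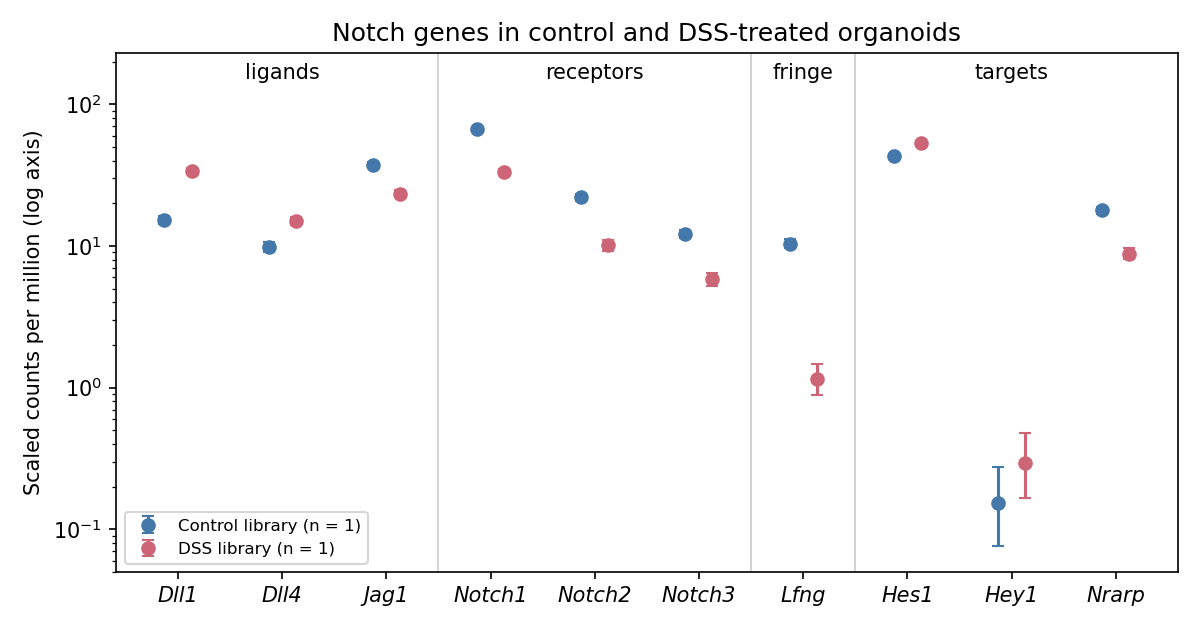
Scaled CPM on a log axis for each Notch gene in the control (blue) and DSS (red) library, with exact Poisson 95% intervals for counting error. Dll1 and Dll4 are higher and Jag1, the 3 receptors, Lfng and Nrarp lower in the DSS library, and Hey1 is near the bottom in both.

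Dll1, the ligand of early secretory cells, had 1093 counts in control and 1839 in DSS mIOs, which is 15.3 and 33.6 CPM. Its log2 ratio of 1.14 (1.03 to 1.25) was the highest of the 10 genes, and 83.1% of all tested genes had a lower ratio. Dll4, the other Delta-like ligand of the crypt, had 703 and 821 counts, or 9.82 and 15.0 CPM. Its log2 ratio was 0.61 (0.47 to 0.76). Both ligands were higher in the DSS library under all 4 scalings, although Dll1 stayed below a log2 ratio of 1 with total counts, at 0.88. Part of Dll4 overlaps Gm14207 on the opposite strand by 214 bases of exon in the GENCODE vM21 annotation, and the sources used here do not say whether counting used strand. Gm14207 had 381 and 296 counts. Exons of Dll1 overlap the noncoding RNA gene A930024N18Rik on the opposite strand over 867 bases, and that gene has no row in the table.

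Jag1, a ligand of the Jagged class, went the other way. It had 2685 counts in control and 1276 in DSS mIOs, 37.5 and 23.3 CPM, for a log2 ratio of -0.68 (-0.78 to -0.59). The second Jagged ligand, Jag2, is not among the 10 genes and had 2733 and 729 counts, a log2 ratio of -1.52 (-1.64 to -1.40). Both Jagged genes were thus lower and both Delta-like genes higher. A ratio of 2 genes within a library is free of the scaling. There were 0.407 Dll1 counts for each Jag1 count in control and 1.44 in DSS mIOs, a log2 change of 1.82 (1.68 to 1.97, Wald interval). The Dll4 to Jag1 ratio went from 0.262 to 0.643, a log2 change of 1.30 (1.12 to 1.47).

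To set the ligands side by side, levels were divided by the length of the longest GENCODE transcript. In CPM per kilobase, Jag2 was highest in the control at 7.48, followed by Jag1 at 6.68, Dll1 at 4.26 and Dll4 at 2.62. In DSS mIOs the order was Dll1 at 9.39, Jag1 at 4.16, Dll4 at 4.01 and Jag2 at 2.61, and the counting intervals of Jag1 and Dll4 overlapped there. Dll1 made up 20.3% of the summed per-length level of these 4 ligands in control and 46.6% in DSS mIOs. The sum itself was 21.0 and 20.2 CPM per kilobase, a log2 ratio of -0.06, so with this length and TMM scaling the total differed little while its makeup did. With the median annotated length the sum was 87.4 and 77.0, a log2 ratio of -0.18. Scaling by total counts lowers either log2 ratio by 0.26. The order depends on the transcript length. With the median annotated length, Jag2 was highest in control at 51.7 CPM per kilobase, followed by Dll1, Jag1 and Dll4. In DSS mIOs Dll1 was highest, followed by Jag2 at 18.04, and Dll4 and Jag1 lay close together. Dll1 then made up 23.7% and 59.2% of the 4 ligands, so its share was higher in DSS mIOs with either length.

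Notch1, the main receptor of crypt stem cells together with Notch2, had 4750 counts in control and 1829 in DSS mIOs, 66.4 and 33.5 CPM. Its log2 ratio was -0.99 (-1.07 to -0.91). Notch2 had 1573 and 551 counts, 21.98 and 10.1 CPM, and a log2 ratio of -1.12 (-1.27 to -0.98). Notch3, best known from smooth muscle and pericytes, had 865 and 318 counts, 12.1 and 5.82 CPM, and a log2 ratio of -1.06 (-1.25 to -0.87). The 3 intervals overlapped. Within a library the receptors kept nearly the same proportions, since there were 0.331 Notch2 counts for each Notch1 count in control and 0.301 in DSS mIOs, a log2 change of -0.14 (-0.30 to 0.02), and 0.182 and 0.174 Notch3 counts for each Notch1 count, a log2 change of -0.07 (-0.27 to 0.13). Exons of each of these receptors also overlap an annotated noncoding or unverified transcript, such as 0610009E02Rik on the opposite strand of Notch1, with 26 and 16 counts. The fourth receptor, Notch4, which is mainly endothelial, had only 110 and 79 counts and a log2 ratio of -0.09 (-0.52 to 0.34).

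Per length, Notch1 had the highest receptor level in both libraries, at 6.99 and 3.53 CPM per kilobase, and made up 64.6% and 64.9% of the 4 receptors together, or 87.7% and 87.3% with the median transcript length. Notch2 was at 2.09 and 0.960 and Notch3 at 1.51 and 0.726 CPM per kilobase. The order of Notch2 and Notch3 turned when the median instead of the longest transcript length was used, because Notch3 has short annotated transcripts. The summed receptor level went from 10.8 to 5.43 CPM per kilobase, a log2 ratio of -0.996. Dll1 did not follow this shift. For each Notch1 count there were 0.230 Dll1 counts in control and 1.01 in DSS mIOs, a log2 change of 2.13 (1.99 to 2.26), whereas the Jag1 to Notch1 ratio went from 0.565 to 0.698, a log2 change of 0.30 (0.18 to 0.43).

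**Figure D2:**
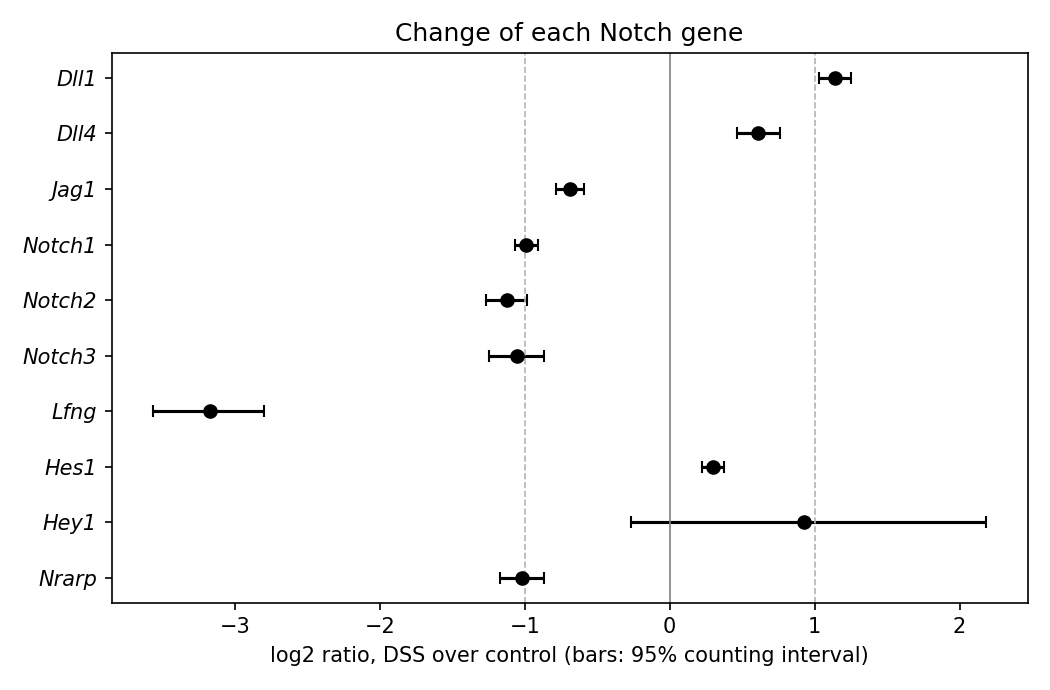
The log2 ratio of DSS over control for each Notch gene on the horizontal axis, with its 95% counting interval, and dashed lines at 1 and -1. Notch1, Notch2, Notch3 and Nrarp gather at the lower line, Lfng lies far below it at -3.17, and the interval of Hey1 spans 0.

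These are bulk libraries, in which fewer cells of a type and less RNA per cell cannot be told apart. The stem cell and cycling cell markers were lower in DSS mIOs too. All 8 stem cell markers were lower in the DSS library, with a median log2 ratio of -3.41, and Slc12a2 and Smoc2, the most abundant of them, were at -3.25 and -1.25. All 8 cycling cell markers were lower as well. Their summed level was 1466 CPM in control and 259 CPM in DSS mIOs, and the most abundant, Mki67 and Pcna, were at -4.02 and -0.71. The part of these cells in the receptor values was not tested. The receptors, near -1, were less far below 0 than any of the 8 stem cell markers, of which Smoc2 came closest. The interval of Smoc2, from -1.29 to -1.21, overlapped those of Notch2 and Notch3 and not that of Notch1. Of the cycling cell markers, Pcna lay closer to 0 than the receptors, and the other 7 lay farther from it.

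For Notch3 the markers of pericytes and smooth muscle were read. Of 8, 5 were in the table, with summed levels of 11.5 and 5.78 CPM, most of it Mcam at a log2 ratio of -3.37 and Kcnj8 at -0.09. The lower sum followed Mcam, which had 488 counts in control and 36 in DSS mIOs. The other 3 lay above 0 on few counts, Pdgfrb with 67 and 64, Rgs5 with 4 and 11, and Acta2 with 4 and 20. The 5 markers thus went both ways, and their median was 0.32. The part of these cells in the Notch3 counts was not tested. The defining genes Des, Myh11 and Cspg4 had no row.

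Lfng, the fringe enzyme that extends O-fucose on Notch and so favours Delta-like over Jagged ligands, showed the widest difference of the 10 genes. It had 742 counts in control and only 63 in DSS mIOs, 10.4 and 1.15 CPM. The log2 ratio was -3.17 (-3.56 to -2.80), and 2.09% of all tested genes had a lower one. It was the only 1 of the 10 past a log2 ratio of -2, a line that 6.54% of all tested genes passed, and none of the 10 passed 2, against 7.87%. Among genes with 500 or more counts these shares were 6.15% and 4.49%. The difference went beyond that of the receptors, since there were 0.156 Lfng counts for each Notch1 count in control and 0.0344 in DSS mIOs, a log2 change of -2.18 (-2.56 to -1.80).

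The fringe genes did not move together. Rfng, the radical fringe, was named here after its values were seen, and had 1334 and 1086 counts with a log2 ratio of 0.09 (-0.03 to 0.21). Per length, Lfng made up 36.6% of the 3 fringe genes in control and 5.77% in DSS mIOs, while Rfng made up 61.4% and 92.9%. With the median transcript length the order in control turned, Lfng making up 52.4% and Rfng 44.1%, and in DSS mIOs Lfng made up 10.7% and Rfng 86.2%. The share of Lfng was lower in DSS mIOs with either length. There were 1.80 Rfng counts for each Lfng count in control and 17.2 in DSS mIOs.

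Hes1, the repressor through which Notch holds back Atoh1, had 3077 counts in control and 2893 in DSS mIOs, 43.0 and 52.9 CPM. The log2 ratio was 0.30 (0.23 to 0.37), or 0.0435 with total counts, so that Hes1 was level or slightly higher in the DSS library. In CPM per kilobase it was at 29.3 and 36.0, the highest of the 10 genes with the longest transcripts. Nrarp, a feedback inhibitor that is induced by Notch and binds its intracellular part, had 1281 and 483 counts, 17.9 and 8.83 CPM, and a log2 ratio of -1.02 (-1.17 to -0.87). These targets therefore parted. There were 2.40 Hes1 counts for each Nrarp count in control and 5.99 in DSS mIOs, a log2 change of 1.32 (1.15 to 1.49). Nrarp kept its proportion to Notch1, at 0.270 and 0.264 counts for each Notch1 count, a log2 change of -0.03 (-0.20 to 0.14), and Hes1 did not, at 0.648 and 1.58. In GENCODE vM21, Nrarp overlaps Gm38287 on the opposite strand over 2051 bases of exon, so reads of both could be counted together if strand was ignored.

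Hey1, a relative of Hes1 and a target in blood vessels, was barely detected. It had 11 counts in control and 16 in DSS mIOs, 0.154 and 0.293 CPM, and the interval of its log2 ratio of 0.93, from -0.27 to 2.18, included 0. A difference in Hey1 was not detectable at this depth. Of 8 endothelial markers, 4 were in the table, with summed levels of 7.71 and 5.21 CPM. The sum followed Esam, which had 523 and 104 counts and a log2 ratio of -1.94. The other 3 were higher in DSS mIOs on few counts, Tek at 3.40 with 12 and 97, Tie1 at 2.92 with 5 and 29, and Pecam1 at 2.58 with 12 and 55, so the median of the 4 was 2.75. The part of these cells in the Hey1 counts was not tested. The defining genes Cdh5, Kdr, Cldn5 and Emcn had no row.

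**Figure D3:**
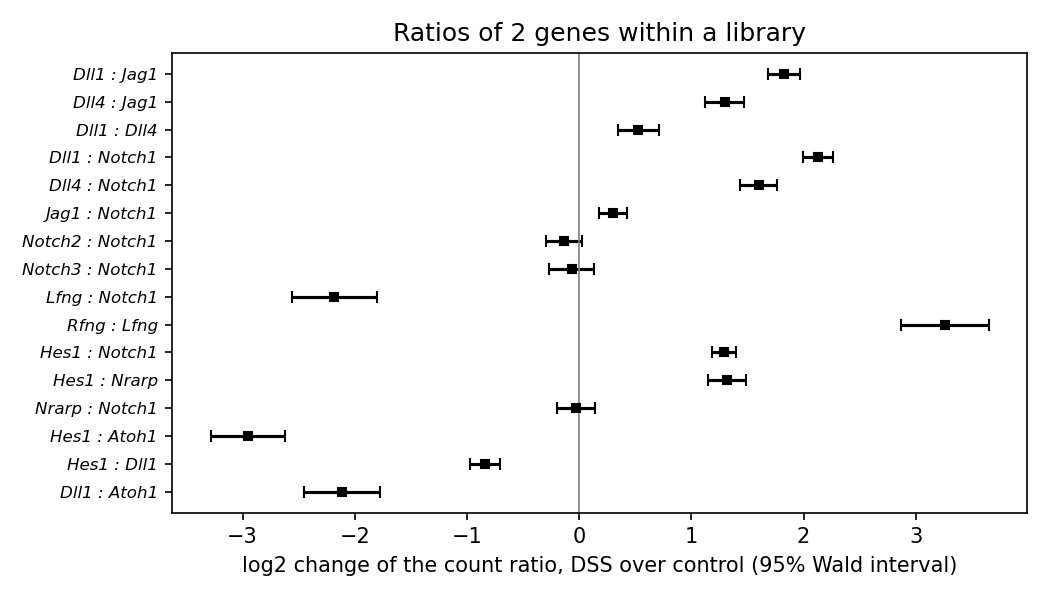
The log2 change, DSS over control, of the count ratio of 2 genes within a library, with 95% Wald intervals for counting error. Dll1 to Notch1 and Dll1 to Jag1 lie well above 0, Notch2, Notch3 and Nrarp to Notch1 have intervals that span 0, and Lfng to Notch1 and Hes1 to Atoh1 lie well below 0.

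The promoters of Lfng and Nrarp are shown because both genes were lower in the DSS library and only these, of the 8 of the 10 genes with an entry in the RefSeq promoter table, held a searched motif within 250 bases before the start. The 2 genes without an entry, Hes1 and Hey1, were not searched. The motifs were TGGGAA, the core bound by RBPJ, searched on both strands (as TTCCCA on the other), and the palindrome CACGTG, an E-box of the kind that HES and HEY proteins can bind. TGGGAA was found in 21.6% and CACGTG in 6.02% of all 32851 promoters over the same length. The sequences below run 5′ to 3′ from 200 to 51 bases before the start on the plus strand of GRCm38.p6, chr5:140607141-140607290 for Lfng and chr2:25180558-25180707 for Nrarp, and capitals mark the motifs.
Lfng: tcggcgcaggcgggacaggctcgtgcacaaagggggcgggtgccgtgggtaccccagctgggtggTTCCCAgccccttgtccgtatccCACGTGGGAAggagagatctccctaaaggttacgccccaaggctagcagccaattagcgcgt
Nrarp: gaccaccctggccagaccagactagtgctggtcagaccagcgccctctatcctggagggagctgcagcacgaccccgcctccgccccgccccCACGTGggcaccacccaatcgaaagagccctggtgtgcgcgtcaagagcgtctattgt
Lfng holds TTCCCA from 135 to 130 bases before the start, and CACGTG from 112 to 107, which overlaps TGGGAA from 108 to 103. Nrarp holds CACGTG from 108 to 103 bases before the start. No factor was measured on these promoters.

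The other genes of the pathway were read from 9 lists with 58 genes, of which 52 were in the table and tested. Of these, 7 had a log2 ratio of 1 or more, 7 of -1 or less, and 38 lay between, with a median of -0.15. Of all tested genes, 19.3% and 20.2% were past these lines. With total counts the numbers were 4 and 11 of the 52, and 2659 and 4508 of all 17235 tested genes.

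The 10 genes of receptor processing, which include furin, the ADAM proteases and gamma-secretase, all lay between the lines, as did 10419 of all 17235 tested genes. The median log2 ratio of the 10 was -0.03. Adam10, the protease that makes the first ligand-induced cut, was lowest at -0.42, and Aph1c and Adam17 were at -0.40 and -0.39. By contrast, 4 of 6 genes of receptor glycosylation were at -1 or less, against 20.2% of all tested genes, and the median was -1.07. With upper quartile factors 2 of 6 were at -1 or less and the median was -0.98, and with a prior count of 2 it was 3 of 6. The 4 included the O-glucosyltransferases Poglut3 at -2.08, Poglut1 at -1.21 and Poglut2 at -1.07. Pofut1, which adds the O-fucose that fringe enzymes extend, was at -0.44. The fourth, Mfng, had 33 and 12 counts.

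Among the 4 listed genes of ligand endocytosis, the E3 ligases Neurl1b at 0.88 and Mib2 at 0.71 were higher and Mib1 was lower at -0.44, and Neurl1a alone passed a line, on 16 and 26 counts. Of 9 genes of receptor turnover, Nedd4 alone passed a line, at -1.28 with 56977 and 17933 counts. Dtx4 was at -0.94, Numbl at 0.84 and Dtx3 at -0.58. Among all tested genes, 19.3% passed the upper line and 20.2% the lower. In the nuclear complex, the DNA-binding factor Rbpj had 3383 and 1586 counts and a log2 ratio of -0.70 (-0.79 to -0.62). The coactivator Maml2 was at 1.40 on 91 and 184 counts, Snw1 at -0.65 and Maml3 at -0.38. Of 8 corepressors, Tle2 was at 1.36 and Tle1 at -1.04, so these Groucho relatives, which HES proteins recruit, differed in direction, and Hdac1 and Tle3 were at -0.76 and -0.71.

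Of the further ligands and ligand-like genes, Dlk1, a non-canonical ligand, was at 2.23 with 121 and 433 counts, and Dner at 1.21 with 76 and 134. Dll3 had no row. Of 8 other HES and HEY genes, 5 had no row, among them Hes5, Hey2 and Heyl, and Hes7 had 11 and 18 counts. Hes2 had 149 counts in control and 795 in DSS mIOs and a log2 ratio of 2.80 (2.55 to 3.07), the highest of all pathway genes read here apart from the secretory factor Atoh1. Hes6, which can oppose Hes1, was at -0.76 on 3469 and 1562 counts.

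**Figure D4:**
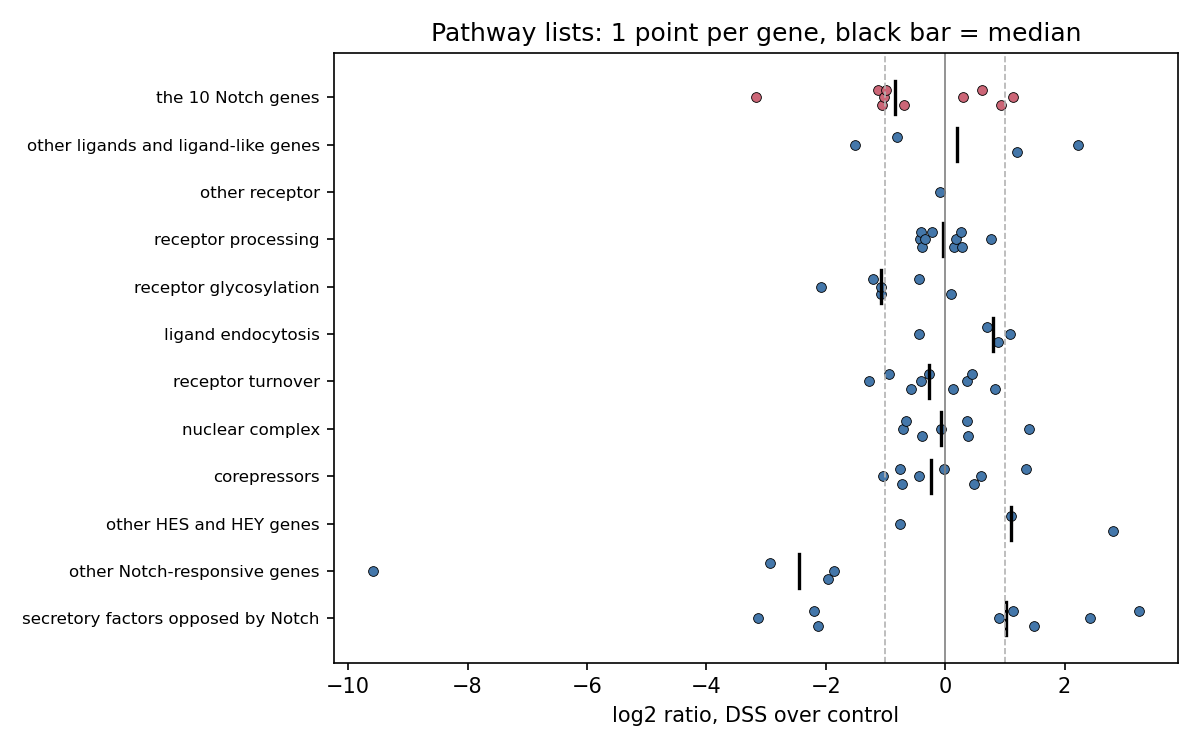
The log2 ratio of DSS over control for each gene of the 10 Notch genes (red) and of the other lists (blue), 1 point per gene with at least 10 counts in a library, black bars at the median of lists of 3 or more genes and dashed lines at 1 and -1. Receptor processing stays between the lines, receptor glycosylation centres on -1.07, and the secretory factors spread to both sides.

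Genes outside the core pathway that respond to Notch were lower than Hes1. Of the 4 in the table, all had a log2 ratio of -1 or less, against 20.2% of all tested genes. Sox9 was at -1.86, Myc at -1.97, Ccnd1 at -2.94 and Olfm4 at -9.59 (-10.5 to -8.81) on 13109 and 13 counts. These genes also answer to WNT signaling or mark crypt base and cycling cells, whose markers were lower in the DSS library, and the part of these cells was not tested.

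The 8 secretory factors that Notch opposes, directly or further downstream, went both ways. Atoh1, the factor that commits cells to the secretory fate, had 89 counts in control and 647 in DSS mIOs, 1.24 and 11.8 CPM, and a log2 ratio of 3.25 (2.93 to 3.59). Spdef, which acts in goblet cells, was at 2.43. Neurog3, which starts the enteroendocrine program, was at -3.14 on 692 and 60 counts, and Pou2f3, the tuft cell factor, was at -2.20. Of the 8, 4 passed the upper line, with Insm1 on 469 and 1001 counts and Neurod1 on 423 and 713, and 3 the lower, with Bhlha15 on 850 and 149. Of all tested genes, 19.3% passed the upper line and 20.2% the lower. Hes1 was present at 34.6 counts for each Atoh1 count in control and 4.47 in DSS mIOs, a log2 change of -2.95 (-3.28 to -2.62), in which the Hes1 term was 0.30 and the Atoh1 term 3.25. The Dll1 to Atoh1 ratio was also lower, at 12.3 and 2.84.

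Markers of the secretory cells that carry Delta-like ligands were read beside these values. All 8 goblet cell markers were at 1 or more, against 19.3% of all tested genes, led in abundance by Fcgbp at 3.77 and Zg16 at 8.64. The summed level of the 8 was 891 CPM in control and 12033 CPM in DSS mIOs. All 8 enteroendocrine markers were also at 1 or more, with summed levels of 841 and 4341 CPM and Chgb at 2.30 and Chga at 2.60. Of the 7 listed Paneth cell markers, 6 were below 0, among them Lyz1 at -1.06, while Pnliprp2 was at 4.24 and set the summed level of 689 and 1418 CPM. The 7 listed tuft cell markers were all below 0, with summed levels of 8.23 and 5.12 CPM and Trpm5 at -0.88 and Avil at -0.08. All 8 enterocyte markers were at 1 or more, with Sis at 3.32 and Apoa1 at 5.27. Fibroblast markers were near the limit in both libraries, at 1.19 and 1.23 CPM in sum with Postn on 49 and 22 counts and Col1a1 on 29 and 24, and of 8 immune cell markers 2 were in the table, Cd68 on 491 and 621 counts and Csf1r on 9 and 21. The log2 ratio of Dll1, at 1.14, was below that of every goblet cell, enteroendocrine and enterocyte marker read. It was above those of the 7 tuft cell markers and of the 6 Paneth cell markers below 0. The part of any of these cells in Dll1 and Dll4 was not tested.

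**Figure D5:**
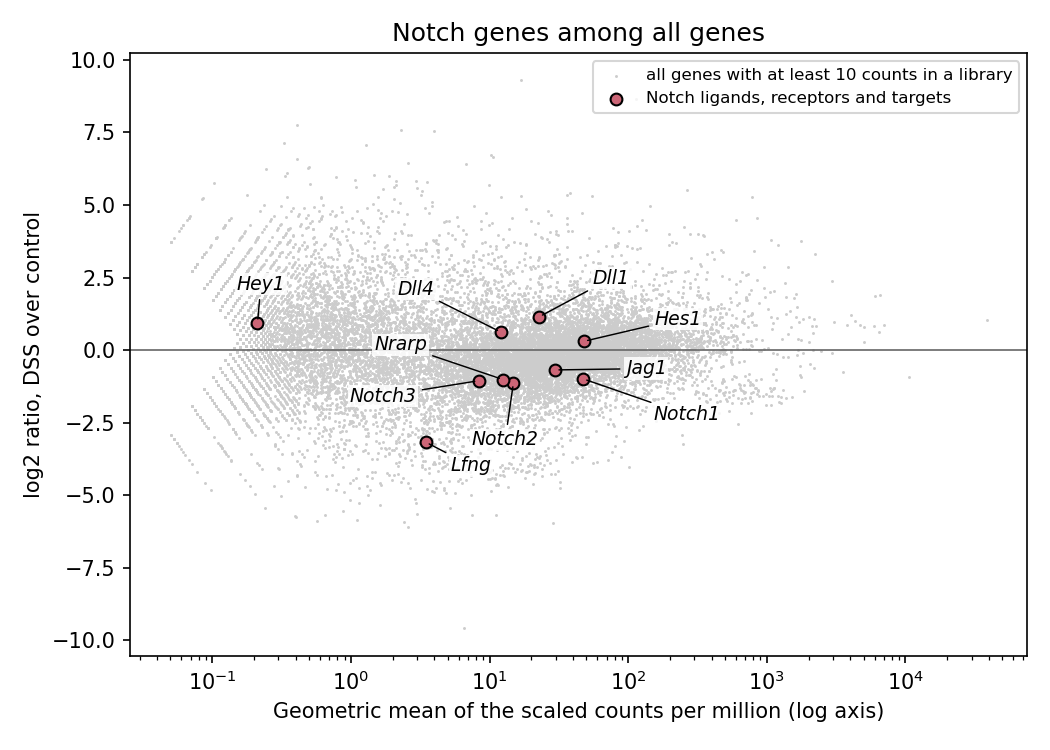
The log2 ratio of DSS over control against the geometric mean of the scaled CPM (log axis) for all genes with at least 10 counts in a library (grey) and the 10 Notch genes (red). Lfng, at -3.17, is the Notch gene farthest from 0, and Hey1 lies where few counts spread the ratios.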

How the data were processed

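RNA was extracted with a column kit, and libraries from a stranded mRNA kit were sequenced from 1 control and 1 DSS-treated mIO culture at day 4. The values the authors deposited were unnormalized counts for each gene. The submitters' processing notes name HISAT2 and StringTie, and the genome build and the use of strand in counting are not given in the sources used here. Both single-sample tables held the same counts for all 19294 genes. Of the gene identifiers, 99.7% were in RefSeq of GRCm38.p6.

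TMM factors were computed with edgeR 4.0.16 (R 4.3.3) and were 1.09 for the control and 0.915 for the DSS library. Log2 ratios had exact Clopper-Pearson 95% intervals, levels exact Poisson intervals, and ratios of 2 genes Wald intervals, all for counting error only. Genes with at least 10 counts in a library were counted against log2 lines of 1 and 2. Lengths came from GENCODE vM21, matched by NCBI gene identifier. With 1 library per condition there was no test and no p-value. The genes and lists were chosen with earlier results of these data known. Of each other pathway list, up to 4 genes with the largest absolute ratio and at least 50 counts in a library were named, with Rbpj and Atoh1 always, and of each marker list the 2 genes with most counts. A gene that this rule names is not reported here. Genes without a row and others given by their counts alone were named outside this rule after their values were seen. Scaling by total counts, by upper quartiles and by DESeq2 1.42.0 was tried, as were a prior count of 2, other count minimums and the median transcript length. The minimum of 500 counts and the class shares with median lengths were added after seeing the data. The computation was tested on simulated counts. Python 3.11.15, numpy 2.4.6, scipy 1.17.1, pandas 2.3.3 and matplotlib 3.10.9 were used.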

Additional observations from a re-analysis of the deposited data

How the results depend on the processing

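Scaling by total counts alone made every log2 ratio 0.26 lower. Dll1 was then at 0.88, Dll4 at 0.36, Jag1 at -0.94, Notch1 at -1.24, Notch2 at -1.38, Notch3 at -1.31, Hes1 at 0.0435 and Nrarp at -1.27, with a median of -1.09 over the 10 genes and of -0.41 over the 52 other pathway genes. Then 0 of the 10 genes passed the line of 1 and 5 passed -1, and of the other pathway genes 4 passed 1 and 11 passed -1. Of all 17235 tested genes, 2659 passed 1 and 4508 passed -1 with total counts. With upper quartile factors, which raise every log2 ratio by 0.09, Notch1 was at -0.90 and Hes1 at 0.39. Then 2 of the 10 genes passed 1 and 2 passed -1, and of the other pathway genes 7 passed 1 and 4 passed -1. Of all 17235 tested genes, 3646 and 3147 passed 1 and -1 with these factors. At lines of 2 and -2 with TMM scaling, 0 and 1 of the 10 genes passed, against 7.87% and 6.54% of all tested genes. With at least 500 counts in a library, 1 other pathway gene was at 1 or more and 6 were at -1 or less. Of all genes with that many counts, 12.8% and 19.2% were. Not all of the 52 other pathway genes had that many counts. No log2 ratio of the 10 genes changed sign under these scalings or with a prior count of 2, and the counts were the same by the measure of 1.5 times with DESeq2 size factors, with a prior count, without a count minimum and with at least 10 counts in both libraries.

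Dividing by the median transcript length, which includes short transcript models, gave other CPM per kilobase in the control and DSS libraries, namely 20.7 and 45.6 for Dll1, 4.43 and 6.77 for Dll4, 10.6 and 6.60 for Jag1, 163 and 82.4 for Notch1, 3.55 and 1.63 for Notch2, 16.9 and 8.11 for Notch3, 9.65 and 1.07 for Lfng, 81.2 and 99.9 for Hes1, and 0.163 and 0.311 for Hey1. Levels between genes therefore depend on the transcript chosen, while the ratio of a single gene between libraries does not. The log2 ratio of a summed class does. With the longest and the median length it was -0.06 and -0.18 for the ligands, and -0.50 and -0.88 for the fringe genes. No paired analysis was possible because each group holds 1 library and the result comes from no test. No library could be left out. The depth limits Hey1 most, with 11 and 16 counts.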
